A study of Mus musculus with 4 samples.

Results

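The matrix metalloproteinases, ADAMTS proteases and TIMPs were examined on arrays of RNA from the epididymal fat pads, a visceral depot next to the epididymis, of high-fat-fed C57Bl/6J mice. They comprised 36 of the 18194 genes with 1 symbol on the Affymetrix mouse array used, namely 17 Mmp, 15 Adamts and 4 Timp genes. Members were taken by symbol, as every Mmp, Adamts or Timp name followed by a number except Mmp12. They had 69 probe sets, and for each gene the brightest one by mean log2 signal over the 4 arrays was used. The high-calcium whey group consisted of 2 arrays from mice fed 1.8% calcium with whey protein isolate, and the standard high-fat group of 1 array from a mouse fed 0.4% calcium. Both diets gave 60% of energy as fat and were fed for 21 weeks from 9 weeks of age, so calcium and whey protein differed together. The labels state 10 mice per diet with 2 profiled, but the diet of a further array could not be read from its labels, and this array of open diet entered no comparison. RNA came from whole fat pads, in which fewer cells of a type and less RNA per cell cannot be told apart.

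Matrix metalloproteinases are zinc enzymes that are made as inactive precursors and that cleave collagens, gelatin, proteoglycans and cell surface proteins. ADAMTS proteases are secreted relatives with thrombospondin repeats, several of which cut the large proteoglycans aggrecan and versican, while others trim procollagens. TIMPs are small secreted proteins that occupy the active site of these enzymes, and in growing fat the balance between proteases and TIMPs governs how the collagen mesh around each adipocyte is rebuilt.

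The promoter windows of a few members are shown first, because 11 of the 36 members lie on chromosome 9. Of these 11, only Mmp3, Mmp7, Mmp13 and Adamts15 had a mean signal above background, set below at the median of each array. Each of them was lower on high-calcium replicate 1 than on the standard array. RefSeq's promoter table (GRCm38.p6), matched by gene identifier, held 24 windows of 300 bases for 22 member genes, each with 250 bases before the start of the gene and 50 after it. Of these 22 genes, 8 lie in the cluster of Mmp genes on chromosome 9. The letters TGANTCA, the core that AP-1 factors bind, and TATAAA were searched on both strands, and they did not overlap each other in the member windows. TGANTCA stood in 7 of the 8 cluster genes and in 0 of the other 14, against 7.81% of all 32851 windows in the table. TATAAA stood in all 8 cluster genes and in 1 of the others, Adamts1, against 13.6% of all windows. The 4 windows below are those of Mmp7, the member with the largest difference between the diets, of Mmp3 and Mmp13, neighbours that were lowest on high-calcium replicate 1, and of Mmp14, which was lowest on that array too and holds neither motif. They lie at chr9:7691840-7692139, chr9:7445572-7445871, chr9:7272264-7272563 and chr14:54431348-54431647, all on the plus strand, and are written 5′ to 3′ with both motifs in capitals.
Mmp7: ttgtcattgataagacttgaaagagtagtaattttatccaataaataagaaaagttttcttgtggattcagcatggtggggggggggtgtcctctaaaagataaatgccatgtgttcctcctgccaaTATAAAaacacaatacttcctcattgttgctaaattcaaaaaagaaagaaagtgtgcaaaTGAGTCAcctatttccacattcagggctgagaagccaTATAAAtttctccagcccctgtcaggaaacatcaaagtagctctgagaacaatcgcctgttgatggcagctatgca
Mmp3: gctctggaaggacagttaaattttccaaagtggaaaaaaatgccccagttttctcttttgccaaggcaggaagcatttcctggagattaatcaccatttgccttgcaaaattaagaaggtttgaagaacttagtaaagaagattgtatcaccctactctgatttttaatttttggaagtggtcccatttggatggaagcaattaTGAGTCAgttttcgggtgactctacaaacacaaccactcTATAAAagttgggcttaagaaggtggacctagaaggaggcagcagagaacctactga
Mmp13: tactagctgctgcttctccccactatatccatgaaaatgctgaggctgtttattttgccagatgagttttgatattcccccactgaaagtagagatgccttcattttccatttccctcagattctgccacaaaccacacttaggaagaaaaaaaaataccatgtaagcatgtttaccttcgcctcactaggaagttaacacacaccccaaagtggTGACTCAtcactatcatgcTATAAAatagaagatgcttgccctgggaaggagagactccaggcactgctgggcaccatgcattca
Mmp14: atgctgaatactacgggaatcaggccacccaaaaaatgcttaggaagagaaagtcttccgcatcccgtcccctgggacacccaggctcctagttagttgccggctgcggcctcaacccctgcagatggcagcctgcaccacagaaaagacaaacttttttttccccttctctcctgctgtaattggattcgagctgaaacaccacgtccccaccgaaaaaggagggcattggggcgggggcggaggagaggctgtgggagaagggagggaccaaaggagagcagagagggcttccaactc
The TGANTCA match lay 63 to 57 bases before the start in Mmp7, 46 to 40 bases before it in Mmp3 and 35 to 29 bases before it in Mmp13. A match describes letters in the window and was not tested as a binding site.

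Signals are given as log2 of the deposited linear intensity, whose scaling between arrays is unknown. Background was set at the median of all probe sets of an array, at log2 values of -3.38 and -3.99 on high-calcium replicates 1 and 2, -4.002 on the standard array and -4.09 on the array of open diet. By their mean over the 4 arrays 22 of the 36 members lay above background, as did 63.7% of all genes. Array by array, 19 and 22 members were above it on high-calcium replicates 1 and 2, against 21 on the standard array, and 22 on the array of open diet. Of all genes, 66.1% and 65.2% were above it on high-calcium replicates 1 and 2, 66.1% on the standard array and 64.6% on the array of open diet. The adipocyte markers bore out the tissue label, with all 8 measured genes above background and summed signals of 146 and 135 on the high-calcium arrays, 129 on the standard array and 125 on the array of open diet. High-calcium replicate 1 stood apart from the other arrays in markers of other cells. The smooth muscle list, with 9 of its 10 measured genes above background, summed to 71.0 and 12.4 on high-calcium replicates 1 and 2, against 12.2 on the standard array and 9.98 on the array of open diet. The macrophage list, with 10 of 10 above background, summed to 39.1 and 68.0 on high-calcium replicates 1 and 2, against 62.2 on the standard array and 66.7 on the array of open diet. Every result below that rests on replicate 1 is therefore given for both high-calcium arrays.

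Between the diets, limma called 0 of the 36 members at an adjusted p under 0.05, as it called 0.0% of all 18194 genes. At an unadjusted p under 0.05 there were 4 members, Mmp1b, Mmp7, Mmp10 and Adamts19, which is 11.1% of the members beside 4.94% of all genes. Of these 4, Mmp7 alone was above background on any array. When limma's prior was given a trend and made robust, it called 1 member, Mmp7, and 0.033% of all genes. With 1 residual degree of freedom, the fit took the single standard array to vary like the high-calcium arrays, so the number of arrays limits the precision and most intervals are wide. Descriptions by size therefore follow, with a difference of at least 1.5-fold (0.585 on the log2 scale) on both high-calcium arrays as the threshold. Among the 22 members above background 2 were that much higher, Mmp9 and Mmp24, where 3.3% of all genes above background were, and 2 were that much lower, Mmp7 and Mmp13, where 1.66% were. With values under background raised to it, Mmp9 and Mmp7 passed the threshold, 1 in each direction, and Mmp24 and Mmp13 did not. Over all 36 members these counts were 7 and 3, beside 12.7% and 4.49% of all genes, but the additional members, Mmp1a, Mmp1b, Mmp10, Adamts8, Adamts19 and Adamts18, were below background on each of the 4 arrays.

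**Figure D1:**
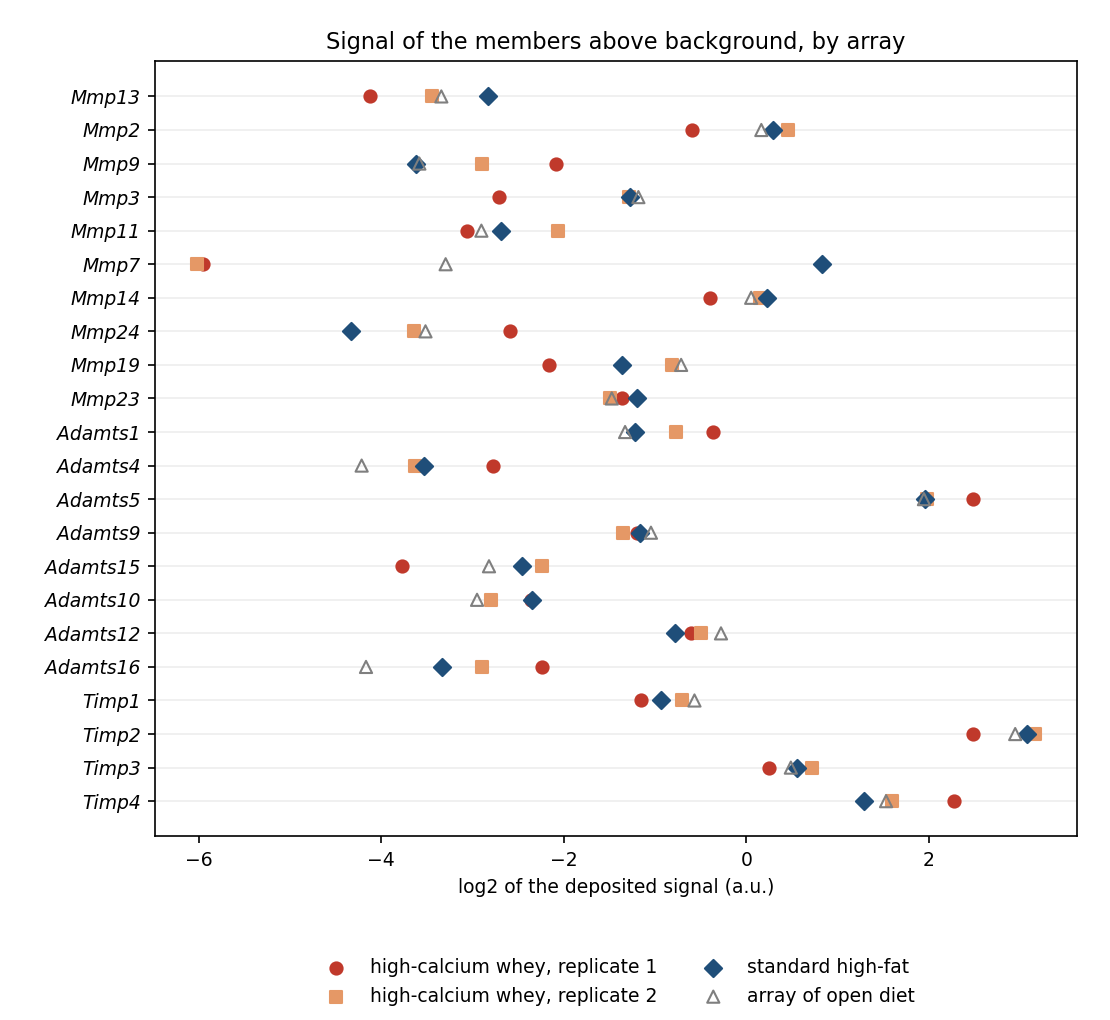
Log2 of the deposited signal (horizontal axis) of the 22 members above background by their mean over the 4 arrays, 1 point per array. Red circles and orange squares are high-calcium replicates 1 and 2, blue diamonds the standard array and open triangles the array of open diet; Mmp7 has the widest spread, from -6.02 on high-calcium replicate 2 to 0.83 on the standard array, and positions of different genes are not comparable as levels.

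Mmp7, matrilysin, a short metalloproteinase made mainly by glandular and ductal epithelium, had a log2 signal of -5.95 and -6.02 on high-calcium replicates 1 and 2, against 0.83 on the standard array. It had -3.29 on the array of open diet. The standard array stood alone at the top, both high-calcium arrays were below background, and the array of open diet lay between, just above background. Since Mmp7 passed the mean above background largely through the standard array, the difference is given as a bound. Relative to the standard array, the high-calcium arrays were lower by a factor of at least 22.9 on average. With values under background raised to it, the log2 difference was -4.21 on replicate 1 and -4.82 on replicate 2. The fitted one was then -4.52 (SE 0.51), which is the same bound on the log2 scale. On the values as deposited limma did not call Mmp7. Larger differences computed from the values as deposited rest on signals within background. Among genes above background, the standard array was at least 1.5-fold above each other array for 1.15% of them and, of the members, for Mmp7 only.

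Markers of efferent duct and epididymal epithelium, ducts that lie beside this fat pad, differed between the arrays too. The list had 8 of 11 measured genes above background and summed to 17.6 and 2.70 on high-calcium replicates 1 and 2, against 7.77 on the standard array and 2.99 on the array of open diet. Its genes did not follow a single pattern, and Lcn8 and Lcn9, lipocalins of the epididymis, were below background on every array. Adgrg2, a surface receptor needed for fluid uptake in efferent ducts, had log2 signals of -1.62 and -2.84 on the high-calcium arrays, against 0.61 on the standard array, and -2.26 on the array of open diet. Thus Adgrg2 was highest where Mmp7 was highest. Krt8, a keratin of simple epithelia, had instead 0.80 and -2.20 on the high-calcium arrays, against 0.028 on the standard array, and -1.99 on the array of open diet. High-calcium replicate 1 carried the Krt8 signal as the standard array did, while its Mmp7 was below background. The part of these cells in the Mmp7 difference was not tested.

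**Figure D2:**
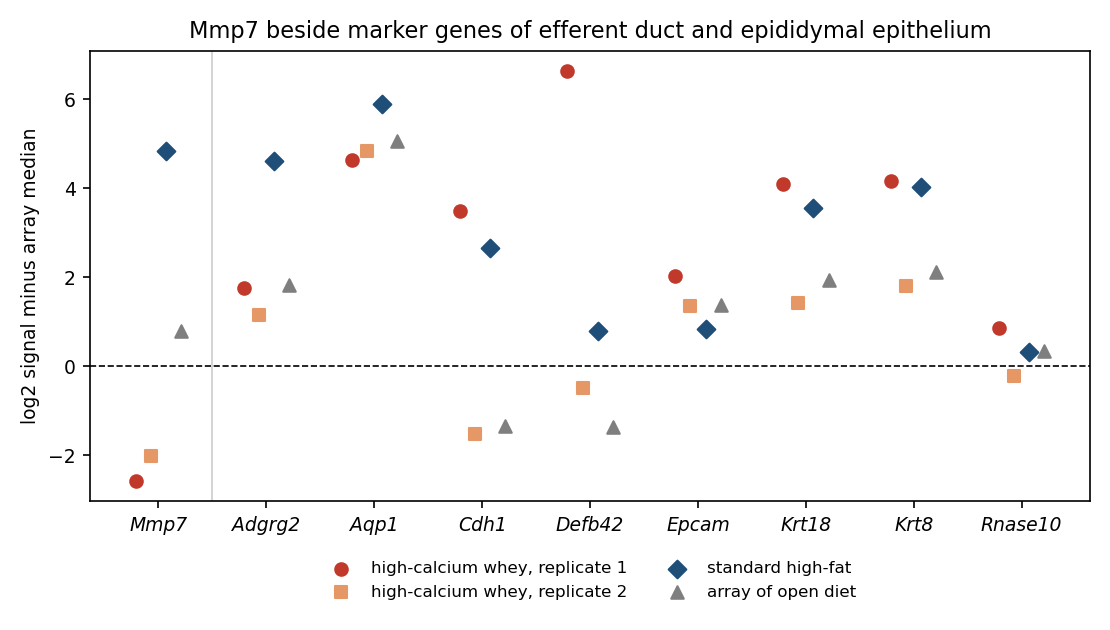
Log2 signal minus the median of the array (vertical axis) for Mmp7, left of the grey line, and the 8 efferent duct and epididymal markers above background, with 4 points per gene for high-calcium replicates 1 and 2, the standard array and the array of open diet. The dashed line marks background; Mmp7 and Adgrg2 are highest on the standard array, whereas Defb42, with a log2 signal of 3.25, is highest on high-calcium replicate 1.

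The collagenase Mmp13, which opens the triple helix of fibrillar collagen, had log2 signals of -4.12 and -3.44 on the high-calcium arrays, against -2.83 on the standard array, and -3.34 on the array of open diet. It was the other member past the 1.5-fold threshold downward on both of these arrays, at -1.29 and -0.62, and was below background on replicate 1. With replicate 1 raised to background its difference was -0.55, short of the threshold, and after quantile normalization replicate 2, at -0.54, did not reach it either. The fitted difference was -0.96 (SE 0.49, 95% interval -2.79 to 0.88) as deposited and -0.58 (SE 0.49) with values raised to background. Mmp8, the collagenase of neutrophils, was above background on the array of open diet only, at -3.98. Mmp1a and Mmp1b, the closely related mouse counterparts of interstitial collagenase, were below background on every array, so no fold is given for them.

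The gelatinases went apart. Mmp9, gelatinase B, a product of neutrophils and macrophages that degrades denatured collagen and basement membrane collagen, had log2 signals of -2.08 and -2.90 on the high-calcium arrays, against -3.62 on the standard array, and -3.58 on the array of open diet. Both high-calcium arrays lay above both of the others, and the differences from the standard array were 1.54 and 0.72. The fitted difference was 1.13 (SE 0.56, 95% interval -0.94 to 3.20; limma, adjusted p = 0.9999). On arrays centred on their medians Mmp9 was higher by 0.91 and 0.71. Its second probe set was above background on high-calcium replicate 1 only and differed by 3.05 and -0.35. The neutrophil list, with 3 of 9 measured genes above background by their mean, summed to 3.63 and 2.95 on the high-calcium arrays, against 6.17 on the standard array and 3.79 on the array of open diet. Most of that sum was S100a8, a calcium-binding protein of neutrophils, with log2 signals of 1.39 and 1.31 on the high-calcium arrays, against 2.47 on the standard array, and 1.78 on the array of open diet. The other list genes above background by their mean were Ltf and S100a9. On high-calcium replicates 1 and 2, Ltf differed from the standard array by 0.44 and -1.96, and S100a9 by 0.018 and 0.12. Ngp, a neutrophil granule protein below background by its mean, had the order of Mmp9. It was above background on the high-calcium arrays only, at -2.45 and -3.54, against -5.48 on the standard array, and -4.31 on the array of open diet. Csf3r, also below background by its mean but above it on 3 arrays, differed by -1.11 and 0.019. Camp differed by 1.19 and -1.14 and Mpo by 0.59 and 0.18, and each was above background on 1 array. Elane and Cxcr2 were below background on every array, and the part of these cells in the Mmp9 difference was not tested. Mmp2, gelatinase A, made mainly by fibroblasts, had -0.60 and 0.46 on the high-calcium arrays, against 0.29 on the standard array, and 0.16 on the array of open diet. Here only replicate 1 stood apart, at -0.89, while replicate 2 differed by 0.16, and the fitted difference was -0.37 (SE 0.67). The second Mmp2 probe set differed by -0.55 and -0.081, so the sign on replicate 2 was not shared.

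The stromelysin Mmp3, which cleaves proteoglycans and fibronectin and activates other metalloproteinases, had log2 signals of -2.71 and -1.28 on the high-calcium arrays, against -1.28 on the standard array, and -1.18 on the array of open diet. The other 3 arrays lay between -1.28 and -1.18, so the difference of -0.72 (SE 0.86) came from replicate 1 at -1.44, with -0.010 on replicate 2. Mmp11, stromelysin 3, was the sole one of the 22 members above background with high-calcium replicate 2 at least 1.5-fold above each other array, at -2.07, with -3.06 on replicate 1, against -2.69 on the standard array and -2.90 on the array of open diet. This was so for 0.388% of all genes above background. Mmp10, stromelysin 2, was below background on all 4 arrays.

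Of the membrane-type enzymes, which work at the cell surface, Mmp14 and Mmp24 were above background by their mean. Mmp24, known mostly from neural tissue, had log2 signals of -2.59 and -3.64 on the high-calcium arrays, against -4.33 on the standard array, and -3.52 on the array of open diet. The standard array was the sole array below background and, as deposited, was at least 1.5-fold below each other array, as for 1.35% of all genes above background. With the standard array set at background, Mmp24 was at least 2.67-fold higher on replicate 1 and at least 1.29-fold higher on replicate 2, which is short of the threshold, and at least 1.85-fold higher on their mean (limma, adjusted p = 0.9999). A second Mmp24 probe set, below background by its mean, exceeded background on the high-calcium arrays only, at -3.23 and -3.28. It had -5.03 on the standard array and -4.24 on the array of open diet. With the standard array set at its background of -4.002, both high-calcium values were past the 1.5-fold threshold. The replicate 1 value was close to that array's own background of -3.38. The dimmest Mmp24 probe set was below background on every array, so no fold is given for it. Mmp14, the activator of Mmp2 at the cell surface, had -0.40 and 0.15 on the high-calcium arrays, against 0.22 on the standard array, and 0.053 on the array of open diet, a difference of -0.35 (SE 0.44). Its second probe set differed by -0.65 and -0.14, whereas the dimmest went the other way, at 0.89 and 0.51. Mmp16 was above background on the array of open diet only and Mmp17 on none.

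Of the remaining metalloproteinases, Mmp19, found in macrophages and vessel walls, had -2.17 and -0.82 on the high-calcium arrays, against -1.36 on the standard array, and -0.71 on the array of open diet. The standard array lay between the 2 high-calcium arrays, which differed from it by -0.80 and 0.55. The second Mmp19 probe set differed by only -0.069 and 0.26. Mmp23, an unusual family member with a cysteine array, was among the steadiest, with differences of -0.17 and -0.30, and Mmp20, an enzyme of tooth enamel, was below background throughout. Over the 10 Mmp genes above background the median difference from the standard array was -0.71 on high-calcium replicate 1 and 0.076 on replicate 2. Over all 11597 genes above background these medians were 0.071 and 0.0031.

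**Figure D3:**
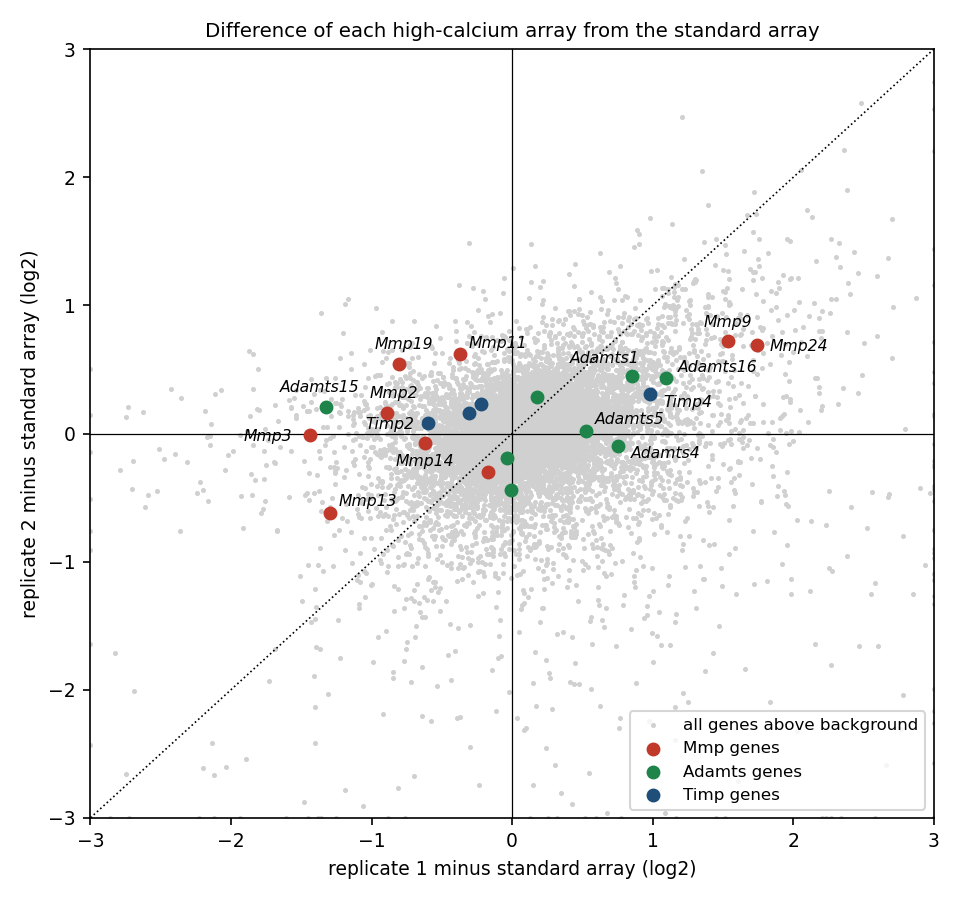
Log2 difference from the standard array on high-calcium replicate 1 (horizontal) and replicate 2 (vertical) for genes above background by their mean, with members in colour and all 11597 genes in grey. Mmp7, at -6.78 and -6.85, lies outside the axes, 74 genes past 3 in size on an array are drawn at the edge, and points on the dotted line differ equally on both arrays; Mmp3, at -1.44 and -0.010, and Timp4, at 0.98 and 0.31, lie off it, as Mmp9 does at 1.54 and 0.72.

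Over the 8 Adamts genes above background the median difference was 0.35 on high-calcium replicate 1 and 0.12 on replicate 2, and its distance from the Mmp median was not tested. After centring on array medians, which lowers every replicate 1 difference alike, 3 of the 8 (Adamts1, Adamts4 and Adamts16) were higher on replicate 1 and 5 were lower. Adamts1, a versican- and aggrecan-cleaving protease, had log2 signals of -0.37 and -0.77 on the high-calcium arrays, against -1.22 on the standard array, and -1.33 on the array of open diet. Both high-calcium arrays were above both of the others, with differences of 0.85 and 0.45 and a fitted value of 0.65 (SE 0.39, 95% interval -0.80 to 2.10). On centred arrays the differences were 0.23 and 0.44. Adamts16, a protease of kidney and gonads, had -2.24 and -2.90 on the high-calcium arrays, against -3.33 on the standard array, and -4.17 on the array of open diet, where it was below background. It differed from the standard array by 1.09 and 0.43, and by 0.47 and 0.42 on centred arrays.

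Adamts5, the main aggrecanase of mouse cartilage, and Adamts4, its relative, were higher on replicate 1 only. Adamts5 had log2 signals of 2.49 and 1.98 on the high-calcium arrays, against 1.96 on the standard array, and 1.95 on the array of open diet. Its 3 bright probe sets gave 0.53, 0.44 and 0.39 on replicate 1 and 0.023, 0.15 and -0.23 on replicate 2, while on centred arrays the chosen probe set turned to -0.098 on replicate 1. Adamts4 differed by 0.75 and -0.095, and its second probe set, below background by its mean, by -1.30 and -0.27. Adamts15, another proteoglycan-cleaving member, was low on replicate 1, as Mmp2 and Mmp3 were: it had -3.78 and -2.24 on the high-calcium arrays, against -2.45 on the standard array, and -2.82 on the array of open diet. Its replicate 1 value was below background.

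Adamts9, Adamts10 and Adamts12 differed by at most 0.44 in size on either array. Adamts9, which cleaves versican, differed by -0.036 and -0.19, Adamts10, which binds fibrillin microfibrils, by -0.0063 and -0.44, and Adamts12, a protease that can degrade cartilage oligomeric matrix protein, by 0.18 and 0.28. On centred arrays Adamts12 turned to -0.45 on replicate 1. Of the other 7 Adamts members, Adamts3, a procollagen N-proteinase, was above background on high-calcium replicate 2 only, and Adamts6, Adamts7, Adamts8, Adamts18, Adamts19 and Adamts20 on no array.

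All 4 TIMPs were above background on every array. Timp4, the member best known from heart and fat, had log2 signals of 2.28 and 1.60 on the high-calcium arrays, against 1.29 on the standard array, and 1.53 on the array of open diet. Replicate 1 was the high array and replicate 2 lay close to the array of open diet, with differences of 0.98 and 0.31 and a fitted value of 0.65 (SE 0.50, 95% interval -1.20 to 2.49). The second Timp4 probe set gave 0.68 and 0.17, and on centred arrays the chosen one gave 0.36 and 0.30. Timp2, the inhibitor that also carries pro-Mmp2 to Mmp14, had 2.48 and 3.16 on the high-calcium arrays, against 3.08 on the standard array, and 2.95 on the array of open diet. It was low on replicate 1 only, and its 5 probe sets above background lay between -0.92 and -0.39 there and between -0.17 and 0.12 on replicate 2.

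Timp3, the TIMP that stays bound to the matrix, had 0.25 and 0.72 on the high-calcium arrays, against 0.56 on the standard array, and 0.49 on the array of open diet, with -0.31 and 0.16 as differences. All 4 of its probe sets were lower on replicate 1, by values from -1.57 to -0.31. Timp1, an inhibitor induced in inflamed and fibrotic tissue, had -1.16 and -0.71 on the high-calcium arrays, against -0.94 on the standard array, and -0.57 on the array of open diet. Its fitted difference was 0.0060 (95% interval -1.50 to 1.51), an interval that includes 2-fold differences either way.

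Differences of differences within an array are free of a constant factor of that array, but not of scaling that varies with signal. On high-calcium replicate 1, quantile normalization moved the difference from the standard array from 1.54 to 1.20 for Mmp9. It moved that of Mmp3 from -1.44 to -1.74 and that of Timp2 from -0.60 to -0.57. The values that follow are from the signals as deposited. Relative to Timp2, Mmp14 differed by -0.025 on high-calcium replicate 1 and -0.16 on replicate 2, and Mmp2 by -0.30 and 0.078. By their chosen probe sets Mmp14 and Timp2, which together bind and activate pro-Mmp2 at the cell surface, thus had nearly equal differences on each array. Their signs were opposite on replicate 2, at -0.074 and 0.084. The second Mmp14 probe set, at -0.65 and -0.14, lay within the range of the Timp2 probe sets above background. The dimmest Mmp14 one, at 0.89 and 0.51, lay outside it. Relative to Timp2, Timp4 differed by 1.58 and 0.22, Mmp9 by 2.14 and 0.64 and Adamts1 by 1.45 and 0.37. Mmp3 lay at -0.84 and -0.094 relative to Timp2. Unequal differences from Timp2 were therefore wider on replicate 1 than on replicate 2 for each of these 4 genes. The same held for Mmp2 and for Adamts5, at 1.12 and -0.061. The reverse held for Mmp14 and for Mmp19, at -0.21 and 0.46. Mmp7, below background on both high-calcium arrays, is left out here.

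**Figure D4:**
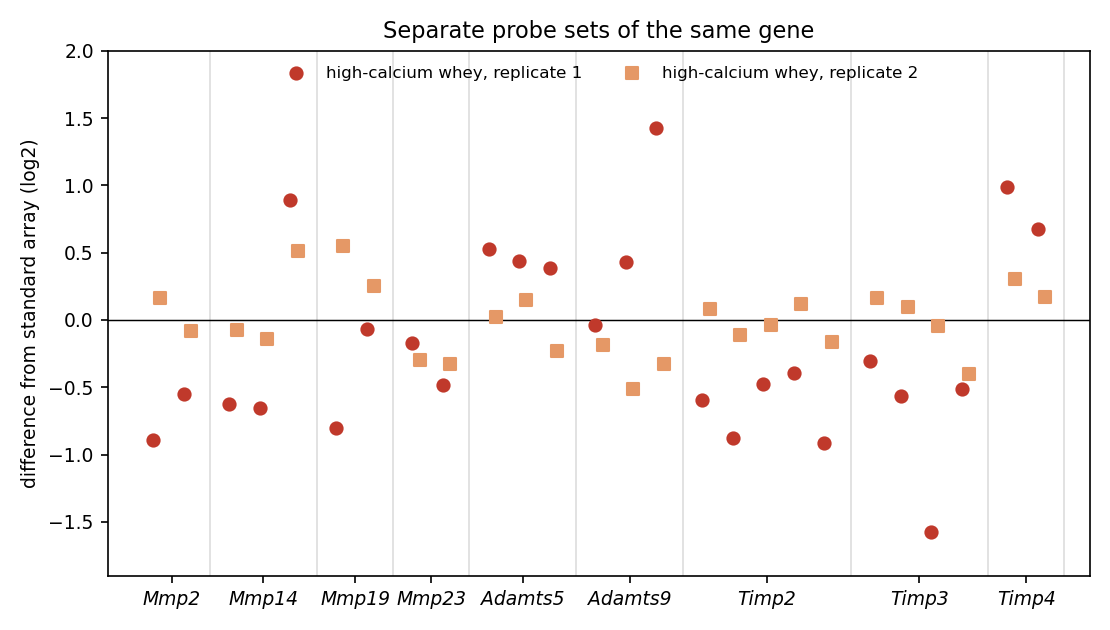
Log2 difference from the standard array (vertical axis) for each probe set above background of the 9 member genes that have more than 1, with red circles for high-calcium replicate 1 and orange squares for replicate 2. Within a gene the probe sets run from the highest mean signal on the left; all 5 Timp2 and all 4 Timp3 probe sets are below 0 on replicate 1, and the dimmest Mmp14 and Adamts9 probe sets, at 0.89 and 1.42 on replicate 1, depart from the others.

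Separate probe sets give a second measurement of the same RNA on the same arrays. Of 17 further probe sets above background, 14 had the sign of the chosen one on high-calcium replicate 1 and 9 on replicate 2. On replicate 1, 13 were within 0.5 of the chosen one in log2 difference, and 15 were on replicate 2, where differences were small. Of 16 further probe sets below background, 7 and 11 had the same sign on the 2 arrays.

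High-calcium replicate 1 was the array that most often stood apart. It lay at least 1.5-fold below each other array for 5 of 22 members above background (Mmp2, Mmp3, Mmp13, Mmp19 and Adamts15), as for 3.51% of all genes above background. It lay at least 1.5-fold above each other array for another 5 (Mmp9, Mmp24, Adamts4, Adamts16 and Timp4), as for 8.99% of those genes. With arrays centred on their medians these counts were 10, beside 31.3% of those genes, and 0, beside 2.11%. After quantile normalization they were 7, beside 7.42%, and 1, Timp4, beside 5.09%. With probe sets averaged per gene they were 4, beside 3.48%, and 4, beside 12.8%. In that setting Mmp2 and Mmp19 were no longer among those below, and Timp3 was. Mmp24 and Adamts4 were no longer among those above, and Adamts10 was. Replicate 1 was below background for Mmp13 and Adamts15, as the standard array was for Mmp24, so the size of those gaps is not known. High-calcium replicate 2 was below each other array by that much for 0 members (1.58% of genes), and the array of open diet for Adamts4 and Adamts16 (2.18% of genes), both below background there, and above for 0 (0.103% of genes). The 2 high-calcium arrays were at least 1.5-fold apart for 12 of the 22 members and for 23.3% of genes above background. At any size, 7 members were higher and 7 lower on both high-calcium arrays, beside 34.9% and 26.6% of genes above background, so these shares were near those of other genes.

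Markers of several cell types differed between the arrays, and replicate 1 was not the array apart in all of them. Fibroblast and progenitor markers, all 9 measured above background, summed to 51.3 and 67.8 on the high-calcium arrays, against 72.0 on the standard array and 63.4 on the array of open diet, with median log2 differences of -0.44 and 0.16. The macrophage medians were -0.93 and 0.11, and those of smooth muscle 2.94 and -0.90. Endothelial markers, 10 of 10 above background, summed to 8.20 and 6.60 on the high-calcium arrays, against 10.9 on the standard array and 6.73 on the array of open diet. Mesothelial markers, 8 of 8 above background, summed to 6.08 and 2.98 on the high-calcium arrays, against 2.41 on the standard array and 3.53 on the array of open diet. B-cell markers, 4 of 7 above background, summed to 3.04 and 0.66 on the high-calcium arrays, against 0.80 on the standard array and 0.52 on the array of open diet. Single markers above background that passed 1.5-fold on both high-calcium arrays were Synpo2 (0.65 and 0.79 on replicates 1 and 2) and Smtn (2.70 and 0.59) of smooth muscle, both higher. In mesothelium Upk3b (1.31 and 0.86), Upk1b (1.32 and 0.78), Lrrn4 (0.93 and 0.63) and Bnc1 (0.88 and 0.59) were higher. In endothelium Sox18 (-1.06 and -0.82), Aplnr (-0.67 and -0.97), Emcn (-0.67 and -0.83) and Tie1 (-0.74 and -0.79) were lower, as were S100a8 of neutrophils (-1.08 and -1.16) and, of the duct epithelium, Adgrg2 (-2.23 and -3.45) and Aqp1 (-0.62 and -1.03). The part of these cells in the member values was not tested.

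Other genes of matrix turnover came from lists written for this comparison, and limma called 0 of their members. Of 12 measured genes of the plasminogen system and pericellular activation, 8 were above background, and 0 of these passed 1.5-fold on both high-calcium arrays in either direction. ADAM sheddases, with 8 of 10 above background, and ADAMTS-like proteins, with 5 of 6, gave 0 as well. Of 20 measured substrates 17 were above background, of which 1 was higher and 2 were lower. Beside these list counts, 3.3% of all genes above background were that much higher on both high-calcium arrays and 1.66% that much lower. Thbs1, thrombospondin 1, had log2 signals of -0.81 and -0.10 on the high-calcium arrays, against -1.69 on the standard array, and -0.53 on the array of open diet, a difference of 1.24 (SE 0.51). Comp, cartilage oligomeric matrix protein, had -3.58 and -3.63 on the high-calcium arrays, against -2.64 on the standard array, and -3.25 on the array of open diet, a difference of -0.96 (SE 0.32). Ncan, neurocan, had -1.07 and -1.09 on the high-calcium arrays, against -0.22 on the standard array, and -0.63 on the array of open diet. For all 3 the standard array was the extreme one. The array of open diet lay between the high-calcium arrays for Thbs1, and between them and the standard array for Comp and Ncan. Comp was below background on high-calcium replicate 1.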

How the data were processed

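The authors deposited intensity values, 1 linear signal per probe set for 45101 probe sets on 4 arrays; RMA is named, without a version, in the submitters' processing notes. The deposited values are not in the form of log2 RMA output, every array has a lowest value of its median over 100, and the scaling between arrays was not given in the sources used here. Values were log2 transformed with no added constant. Of the probe sets 34958 had 1 symbol in the platform annotation, 932 several and 9211 none; 34754 matched a current record by Entrez identifier and 0 symbols changed. limma 3.58.1 in R 4.3.3 (lmFit, eBayes) was fitted over all 18194 genes for 2 high-calcium arrays against 1 standard array, two-sided, with Benjamini-Hochberg adjustment. The procedure was tested on simulated data. Named were all members above background by their mean, the TIMPs, and list genes above background that passed 1.5-fold on both high-calcium arrays, at most 4 a list; other genes were named after their values were seen (markers, members below background). Members, lists and rules were chosen with earlier results of these data known. P-values measure only the spread between these arrays, which may be technical. On centred arrays the named members shared a single spread, so p-values there do not reflect the spread of each gene. Alternatives changed the scaling, the background, the choice of probe set, the fold threshold, the limma prior and the arrays used. Figures used matplotlib 3.10.9 under Python 3.11.15.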

Additional observations from a re-analysis of the deposited data

How the results depend on the processing

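Of the 22 members named, 10 kept their direction under every alternative that gave 1 value per gene. Separate probe sets did not enter this count: for Mmp14, among the 10, the dimmest probe set gave 0.70 against -0.35 for the chosen one. Mmp3, also among the 10, kept its direction at only -0.010 without replicate 1. Single arrays decided the direction of 8: without replicate 1 and without replicate 2 the differences were 0.16 and -0.89 for Mmp2, 0.62 and -0.37 for Mmp11, 0.55 and -0.80 for Mmp19, -0.095 and 0.75 for Adamts4, 0.21 and -1.32 for Adamts15, 0.23 and -0.22 for Timp1, 0.084 and -0.60 for Timp2, and 0.16 and -0.31 for Timp3. With probe sets averaged per gene Adamts4 turned to -0.23, Adamts9 to 0.13, Adamts10 to 0.56, Adamts12 to -0.14 and Timp2 to 0.37. Quantile normalization turned Mmp11 to -0.095 and Timp1 to -0.037, and centring on array medians turned Mmp11 to -0.19, Adamts5 to -0.042, Adamts12 to -0.087 and Timp1 to -0.31.

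limma, as first fitted, called 0 members. It called 1, Mmp7, with values raised to at least the array median (adjusted p = 0.0192) and with a trend and robust estimation, and 2 on centred arrays, Mmp7 (adjusted p = 1.84e-07) and Mmp1b (adjusted p = 0.00927), which was below background; over the alternatives the smallest adjusted p of Mmp7 was the one on centred arrays and the largest 0.9999, with probe sets averaged per gene. On centred arrays Mmp1b and every named member had the same SE, 1.06. A call there followed the size of the difference and not the gene's own spread. Leaving out a replicate left no residual degree of freedom and so no test. Over all genes centring gave 96 calls, flooring 1 and the trend 6, against 0.

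The median log2 difference over all 36 members was 0.25. It was 0.45 with the mean of probe sets, -0.084 after quantile normalization, -0.072 on centred arrays, -0.092 for genes above background, 0.13 for every probe set by itself, and between 0.086 and 0.22 without a replicate. Over the 22 members above background it was -0.092, and -0.41 on centred arrays, with -0.19 and 0.16 without replicates 2 and 1. Centring moved the median of all genes from 0.079 to -0.24.

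All members at least 1.5-fold higher numbered 7, but 2 among genes above background, 1 with floored values, 12 by probe set, 3 at 2-fold and 10 to 14 without a replicate. Those lower numbered 3, but 1 with floored values, 1 at 2-fold and 3 to 11 without a replicate. Of all 18194 genes, 2304 were that much higher, 400 with floored values, and 2932 and 5878 without replicates 1 and 2. In the same settings 817, 209, and 2889 and 1984 of all genes were that much lower. By probe set, 5231 of all 34958 were higher. Among members above background the 2 higher became 1 with the mean of probe sets, 1 with floored values, 0 at 2-fold and 3 to 6 without a replicate. The 2 lower became 1 after quantile normalization, 1 with floored values, 1 at 2-fold and 2 to 8 without a replicate. Settings for replicate 1 against each other array were chosen after seeing the data: centring gave 10 below and 0 above, and quantile normalization 1 above, in place of 5 and 5. With background at 1.5 times the array median 18 members were above it. No paired analysis was possible because the standard group has 1 array and its label carries no replicate number.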
